A study of Mus musculus with 24 samples.

Results

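Livers whose hepatocytes had lost JNK2 were compared with livers whose hepatocytes had lost JNK1, both after 16 weeks on a high fat diet. The comparison rests on 6 of the series' 24 RNA-seq libraries, chosen by their labels alone: 3 with the genotype AlbCre+ Jnk2flox/flox (the Jnk2 group) and 3 with the genotype AlbCre+ Jnk1flox/flox (the Jnk1 group). A group of 3 AlbCre+ livers on the same diet (the control group) and chow-fed livers of the same genotypes are used beside it. All mice were C57BL/6J, and all of the groups named above carry the albumin promoter-driven Cre. That promoter is active in hepatocytes, so endothelial, stellate and immune cells of these livers keep both genes. The series also holds livers labelled for loss of both kinases (the Jnk1Jnk2 groups), with 3 libraries on each diet. No comparison of them is made here, but they are part of the fit of all 24 libraries and of its shared variance. The age of the mice and the time of day of collection are not given, and the labels do not say whether each replicate was its own mouse. The p-values therefore speak only of variation among these libraries, which may be technical. The question is which liver transcripts tell loss of one kinase from loss of the other when dietary fat is high.

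JNK1 and JNK2, encoded by Mapk8 and Mapk9, are stress-activated protein kinases that are switched on by upstream MAP kinase kinases and phosphorylate c-Jun and other transcription factors of the AP-1 family. In the liver of fat-fed mice the pathway is known for dampening insulin signalling and for restraining the nuclear receptor PPARα, whose targets burn fatty acids and include the hormone gene Fgf21. The pair of kinases is often described as partly redundant in hepatocytes.

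Expression was given as FPKM, mapped fragments scaled to transcript length and library size, for 31027 loci, of which 10562 averaged at least 1 FPKM over the 24 libraries and were tested. Changes are differences of mean log2(FPKM + 1), Jnk2 minus Jnk1 unless stated, and a locus is called when limma's Benjamini-Hochberg adjusted p is under 0.05. The scale understates changes of transcripts near 1 FPKM. Read depth is not given. Steps in the low values put the relative depth of the libraries at 0.75, 0.51 and 0.68 in Jnk2 and at 0.75, 0.61 and 0.51 in Jnk1. FPKM summed to 671202, 704343 and 708573 in Jnk2 and to 641351, 683201 and 635617 in Jnk1. Correlations across loci ran from 0.9514 to 0.9768 within the groups and from 0.9362 to 0.9646 between them. Summed over 10 hepatocyte markers, a total led by the most abundant of them, FPKM was 27933, 29137 and 27146 in Jnk2 and 28211, 29799 and 27539 in Jnk1, and the sums overlapped. Of the 12 tested markers 2 were called lower in Jnk2, Apob (−1.35) and Fgb (−0.52). Replicate 3 of Jnk2 stood at the edge of many changes, being the highest of the 3 Jnk2 libraries for 498 of the 797 loci called higher. The measured change also fell with transcript length. Values after removal of a length trend are given for some genes, and list counts near the end of the results.

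The targeted transcripts followed the labels. Mapk8 had 3.94, 3.38 and 4.84 FPKM in Jnk2 and 1.92, 1.84 and 1.87 FPKM in Jnk1, against 4.12, 4.56 and 4.19 FPKM in control livers. The Jnk2 libraries thus stood at the control level and the Jnk1 libraries below both, with no overlap. The difference was 0.80 ± 0.11 (limma's SE, n = 3 each, adjusted p = 0.000115). Here and below this SE rests on the spread within all 8 groups. For a gene whose Jnk2 libraries differ widely it can be too small. Mapk9 had 7.44, 6.58 and 7.79 FPKM in Jnk2 and 11.6, 11.1 and 12.0 FPKM in Jnk1, against 11.8, 10.3 and 10.9 FPKM in control livers. Here the Jnk2 libraries were below both other groups, and the difference was −0.60 ± 0.08 (adjusted p = 0.000145). Neither transcript was lost, and FPKM over a whole locus counts reads from undeleted exons and from the cells in which Cre is not active. Mapk10, which encodes the mainly neuronal JNK3, was listed at 0 in all 6 libraries.

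**Figure D1:**
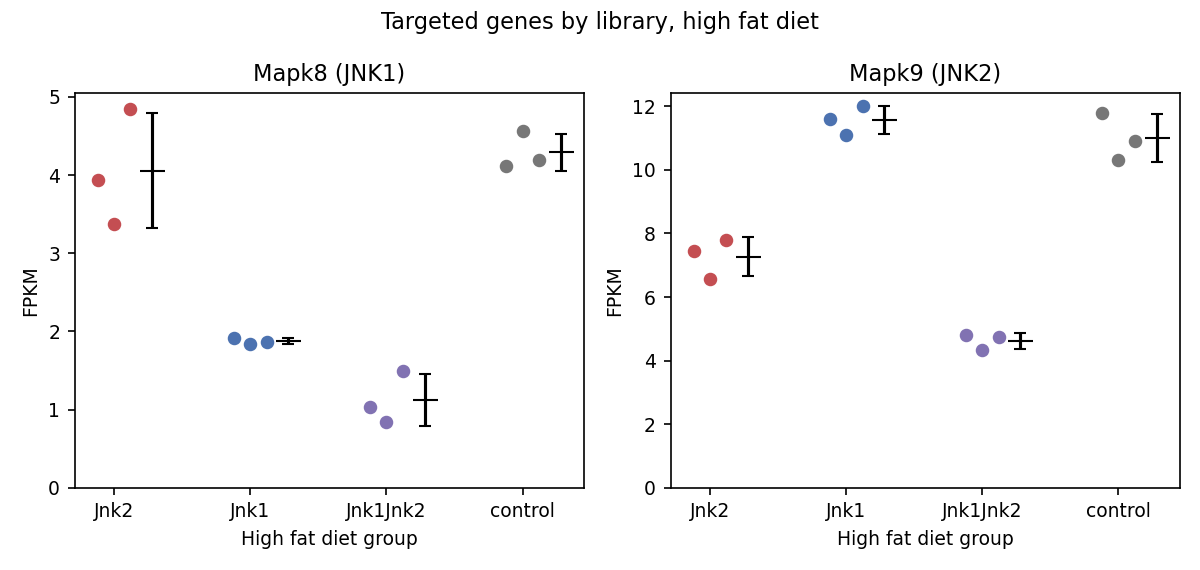
FPKM of Mapk8 and Mapk9 in each library of the high fat groups, Jnk1Jnk2 included, each point 1 library. Mapk8 lies between 1.84 and 1.92 FPKM in Jnk1 and between 3.38 and 4.84 FPKM in Jnk2, while Mapk9 lies between 6.58 and 7.79 FPKM in Jnk2 and between 11.1 and 12.0 FPKM in Jnk1.

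Across the genome 1527 loci (14.5% of those tested) were called between Jnk2 and Jnk1 on high fat, 797 higher in Jnk2 (7.55%) and 730 lower (6.91%), with a median change over all tested loci of 0.03. The values of the 2 groups did not overlap at 3538 loci (33.5%), 1474 of which were also called. By list, the calls among cholesterol genes (21 of 25), the acute phase (11 of 25) and endoplasmic reticulum chaperones and sensors (10 of 21) were lower in Jnk2, with 1 acute phase member higher. Calls among PPARα targets (30 of 44) and lipid droplet proteins (8 of 17) were higher, with 1 PPARα list member lower. List counts here and below stand against the shares over all tested loci, 7.55% called higher and 6.91% lower. Counts of members whose values did not overlap stand against 33.5%. A fit of the 6 libraries alone, which has fewer degrees of freedom and takes its spread from those libraries only, called 546 loci. Without replicate 1 of Jnk1 713 were called, and without replicate 2 of Jnk1 958 were.

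**Figure D2:**
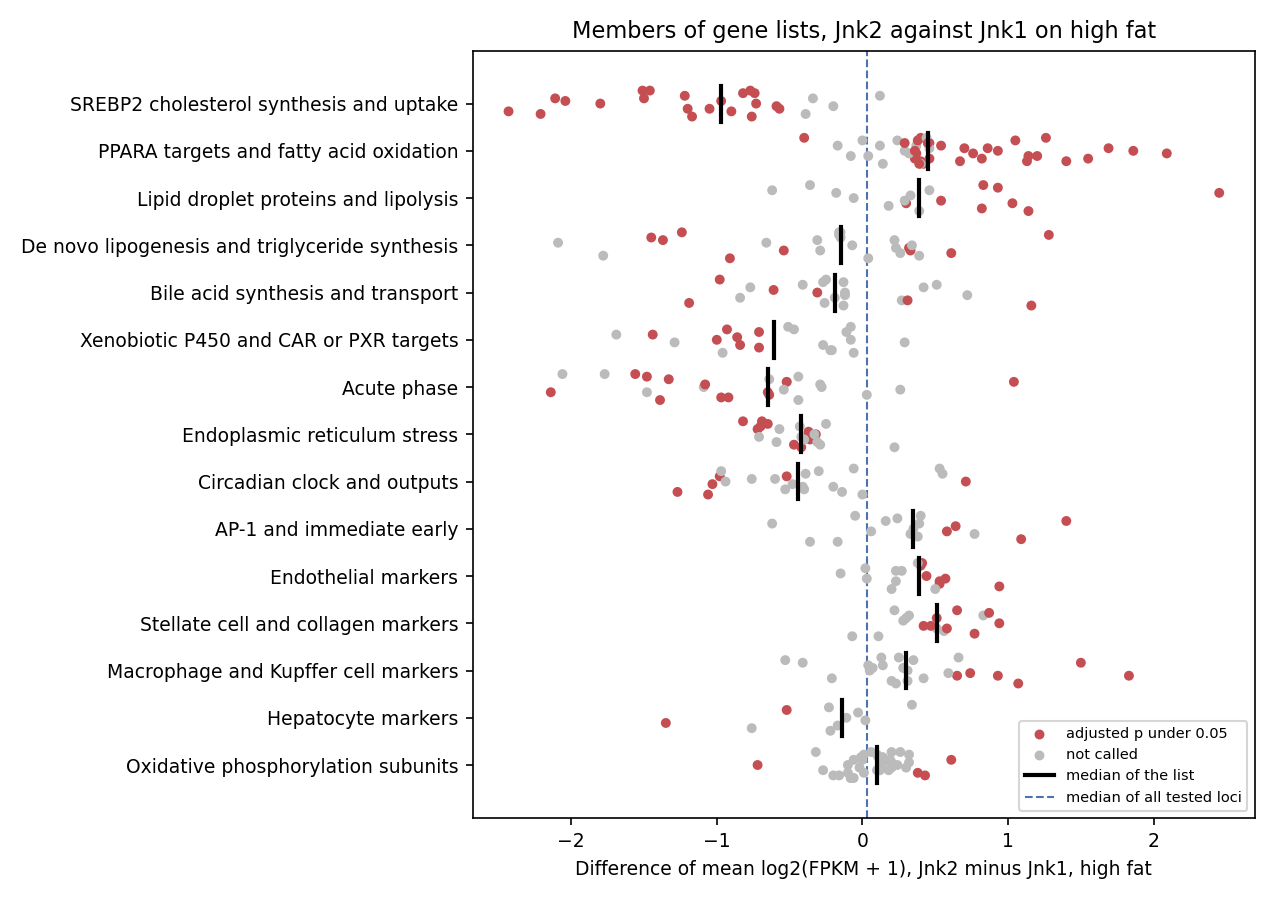
Change of each tested member of the gene lists, Jnk2 minus Jnk1 on high fat, as the difference of mean log2(FPKM + 1), with called members marked. All members of the cholesterol list but Ebp (0.12) lie to the left of 0, with a median of −0.97, and those of the PPARα list mostly to the right, with a median of 0.45.

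Cholesterol synthesis genes were lower in Jnk2 almost throughout. Its genes are driven by SREBP2, a transcription factor that is held in the endoplasmic reticulum membrane while sterols are plentiful and released to the nucleus when they run low. Of 25 tested members of this list, 21 were called lower in Jnk2 and 0 higher, with a median change of −0.97. The falls ran from −0.57 to −2.43. Values did not overlap between the groups for 21 of the 25, against 33.5% of all tested loci. The called genes Fdft1 and Tm7sf2 were among the 4 that did overlap. The members not called were Hsd17b7, Ebp, Sc5d and Acat2. Summed over the list, FPKM was 450, 526 and 378 in Jnk2 and 841, 1006 and 606 in Jnk1.

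The largest fall was that of Sqle, squalene epoxidase, which makes the first oxygenated intermediate of the sterol pathway. Its level was 0.372, 1.62 and 0.868 FPKM in Jnk2 and 9.91, 17.4 and 4.22 FPKM in Jnk1, against 2.89, 5.40 and 2.21 FPKM in control livers. The control values overlapped those of Jnk1 and stood above those of Jnk2, and the change was −2.43 ± 0.42 (adjusted p = 0.000944). The isomerase gene Idi1 had 2.31, 7.06 and 4.47 FPKM in Jnk2 and 26.5, 41.6 and 11.3 FPKM in Jnk1. It changed by −2.21 ± 0.49 (adjusted p = 0.00587). Msmo1, the sterol C4-methyl oxidase listed under its older symbol Sc4mol, had 10.2, 20.4 and 7.21 FPKM in Jnk2 and 59.4, 93.0 and 27.1 FPKM in Jnk1. In these 3 genes replicate 3 was the lowest Jnk1 library and still stood above every Jnk2 library.

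Srebf2, the gene of the factor itself, had 8.79, 12.1 and 10.2 FPKM in Jnk2 and 18.2, 21.8 and 15.2 FPKM in Jnk1, a change of −0.77 ± 0.13 (adjusted p = 0.000656). Lss, which closes squalene epoxide into lanosterol, had 2.59, 3.23 and 2.77 FPKM in Jnk2 and 7.15, 7.63 and 5.14 FPKM in Jnk1. Its change was −0.97 ± 0.15 (adjusted p = 0.000424). Neither gene had overlapping values. The farnesyl diphosphate synthase gene Fdps (−1.80) and Insig1 (−1.46), which holds SREBP proteins in the endoplasmic reticulum, fell as well. Without any one of the 6 libraries, 17 to 21 members were called lower, and with the length trend removed 22 were. In the fit of the 6 libraries alone only 6 were.

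Promoter windows of 4 of these genes are shown because the list shares a short motif in them. NF-Y, a factor known to work together with SREBP proteins at sterol genes, binds CCAAT. The windows run from 250 bases before to 50 bases after the RefSeq start (GRCm38.p6), each on the strand of its gene. Capitals mark CCAAT or its reverse complement ATTGG. Lss lies at chr10:76531355-76531654 (plus strand), Srebf2 at chr15:82147019-82147318 (plus), Idi1 at chr13:8885356-8885655 (plus) and Msmo1 at chr8:64733529-64733828 (minus).
Lss: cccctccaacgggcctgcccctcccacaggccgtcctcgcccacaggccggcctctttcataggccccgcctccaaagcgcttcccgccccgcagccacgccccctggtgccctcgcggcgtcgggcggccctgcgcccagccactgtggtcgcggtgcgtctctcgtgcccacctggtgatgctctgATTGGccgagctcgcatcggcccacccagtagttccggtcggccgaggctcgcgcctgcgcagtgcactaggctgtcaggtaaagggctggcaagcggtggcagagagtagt
Srebf2: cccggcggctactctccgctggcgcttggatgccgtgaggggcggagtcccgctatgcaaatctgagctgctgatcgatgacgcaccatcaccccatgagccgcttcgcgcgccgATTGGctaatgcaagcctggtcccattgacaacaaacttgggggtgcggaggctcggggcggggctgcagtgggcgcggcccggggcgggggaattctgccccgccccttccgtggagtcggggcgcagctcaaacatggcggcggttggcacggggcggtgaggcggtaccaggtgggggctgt
Idi1: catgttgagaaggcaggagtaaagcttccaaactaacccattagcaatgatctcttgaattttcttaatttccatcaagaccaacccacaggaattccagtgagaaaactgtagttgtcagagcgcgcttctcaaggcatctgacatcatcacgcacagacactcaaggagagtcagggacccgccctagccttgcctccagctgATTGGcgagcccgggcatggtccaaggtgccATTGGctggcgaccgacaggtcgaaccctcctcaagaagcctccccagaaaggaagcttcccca
Msmo1: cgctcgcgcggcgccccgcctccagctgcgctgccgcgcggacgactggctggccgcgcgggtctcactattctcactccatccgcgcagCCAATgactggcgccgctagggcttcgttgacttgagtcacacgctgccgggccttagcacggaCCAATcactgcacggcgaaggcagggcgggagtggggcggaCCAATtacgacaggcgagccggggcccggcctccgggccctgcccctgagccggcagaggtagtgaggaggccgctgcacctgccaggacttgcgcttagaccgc

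Lss holds 1 ATTGG, 62 bases before its start, and Srebf2 holds 1, 135 bases before. Idi1 holds 2, at 45 and 14 bases before, and Msmo1 holds 3 CCAAT, at 160, 96 and 55 bases before. Searched on both strands, CCAAT stood in at least 1 RefSeq window of 16 of the 17 listed cholesterol genes that have one (94.1%), and in the window nearest the start of the locus for 15 of the 17 (88.2%). Counted over any window, it stood in 16 of 32 PPARα list genes and in 3164 of 7326 tested genes with a window (43.2%). The shares were 42.4% among the genes called lower and 41.6% among those called higher. The motif was chosen with these results known, and a match is a description of the letters, not of binding.

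Each group was also set against the AlbCre+ livers, which serve both contrasts. In those contrasts 1311 loci (12.4%) were called for Jnk2, 787 higher (7.45%) and 524 lower (4.96%). For Jnk1 24 loci (0.227%) were called, 13 higher (0.123%) and 11 lower (0.104%). At limma's unadjusted p under 0.05 there were 2922 loci for Jnk2 and 1253 for Jnk1. The cholesterol list had a median of −0.44 in Jnk2 against control, with 1 member called lower, and of 0.65 in Jnk1 against control, with 2 called higher. At an unadjusted p under 0.05, 12 members were lower in Jnk2 and 17 higher in Jnk1. Lss differed from control in Jnk1 (0.90, adjusted p = 0.00892), and its difference in Jnk2 was −0.08.

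The PPARα list, which holds genes of peroxisomal, mitochondrial and microsomal fatty acid oxidation, ran the other way. Of 44 tested members 30 were called higher in Jnk2 and 1 lower, with a median of 0.45, against 0.03 over all tested loci. The rises ran from 0.29 to 2.09, and 37 members had values that did not overlap, against 33.5% of all tested loci. Summed FPKM was 18889, 19765 and 23211 in Jnk2 and 13498, 14662 and 12756 in Jnk1. Replicate 3 was the highest Jnk2 library for 25 of the 30. Without it 19 were called higher, and without replicate 1 of Jnk1 also 19. In the fit of the 6 libraries alone 13 were.

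Acot1, a cytosolic acyl-CoA thioesterase, had 90.7, 114 and 143 FPKM in Jnk2 and 39.0, 38.7 and 27.3 FPKM in Jnk1, against 30.8, 23.3 and 29.3 FPKM in control livers. Every Jnk2 library was above every other of these 9, and the change was 1.69 ± 0.19 (adjusted p = 2.60e-05). Its near-identical neighbour Acot2 had 19.8, 18.6 and 28.2 FPKM in Jnk2 and 8.21, 9.54 and 7.91 FPKM in Jnk1 (1.26 ± 0.15, adjusted p = 4.08e-05), and reads can be divided between such copies. The peroxisomal thiolase gene Acaa1b had 1240, 1320 and 1500 FPKM in Jnk2 and 587, 629 and 621 FPKM in Jnk1 (1.14 ± 0.15, adjusted p = 7.37e-05). Aldh3a2, which oxidises fatty aldehydes, had 449, 398 and 504 FPKM in Jnk2 and 246, 262 and 234 FPKM in Jnk1 (0.86 ± 0.11, adjusted p = 6.92e-05). Ehhadh, the bifunctional enzyme of peroxisomal β-oxidation, had the largest rise of the list, at 2.09 ± 0.35 (adjusted p = 0.000699). Its 301, 442 and 1480 FPKM in Jnk2 stood against 141, 142 and 126 FPKM in Jnk1. The third Jnk2 library was thus far above the others, which were themselves above all Jnk1 libraries. In the fit of the 6 libraries alone the Ehhadh call was lost (adjusted p = 0.0846).

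Fgf21, the hepatokine released on fasting and under PPARα, had 12.8, 13.6 and 68.2 FPKM in Jnk2 and 5.05, 7.78 and 4.48 FPKM in Jnk1, against 6.29, 10.4 and 15.4 FPKM in control livers. Jnk2 and Jnk1 did not overlap, but both overlapped the control range. The change was 1.86 ± 0.44 (adjusted p = 0.00827), and it was 1.10 without replicate 3 of Jnk2. In the fit of the 6 libraries alone the Fgf21 call was lost (adjusted p = 0.137). The 1 member called lower was Ppara, the receptor gene itself, with 49.7, 48.4 and 54.9 FPKM in Jnk2 and 71.7, 63.1 and 68.4 FPKM in Jnk1 (−0.40 ± 0.11, adjusted p = 0.0201). Its control libraries had 49.4, 42.2 and 50.2 FPKM, so the Jnk1 level was the one apart. The Ppara call was lost without replicate 1 or 2 of Jnk2 (adjusted p = 0.0555 and 0.0662) and without replicate 1 or 3 of Jnk1 (0.0915 and 0.0509). Against the shared controls, the list had 32 members called higher and 0 lower in Jnk2, with a median of 0.65. In Jnk1 it had 0 called by limma in either direction, 9 higher at an unadjusted p under 0.05, and a median of 0.13.

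**Figure D3:**
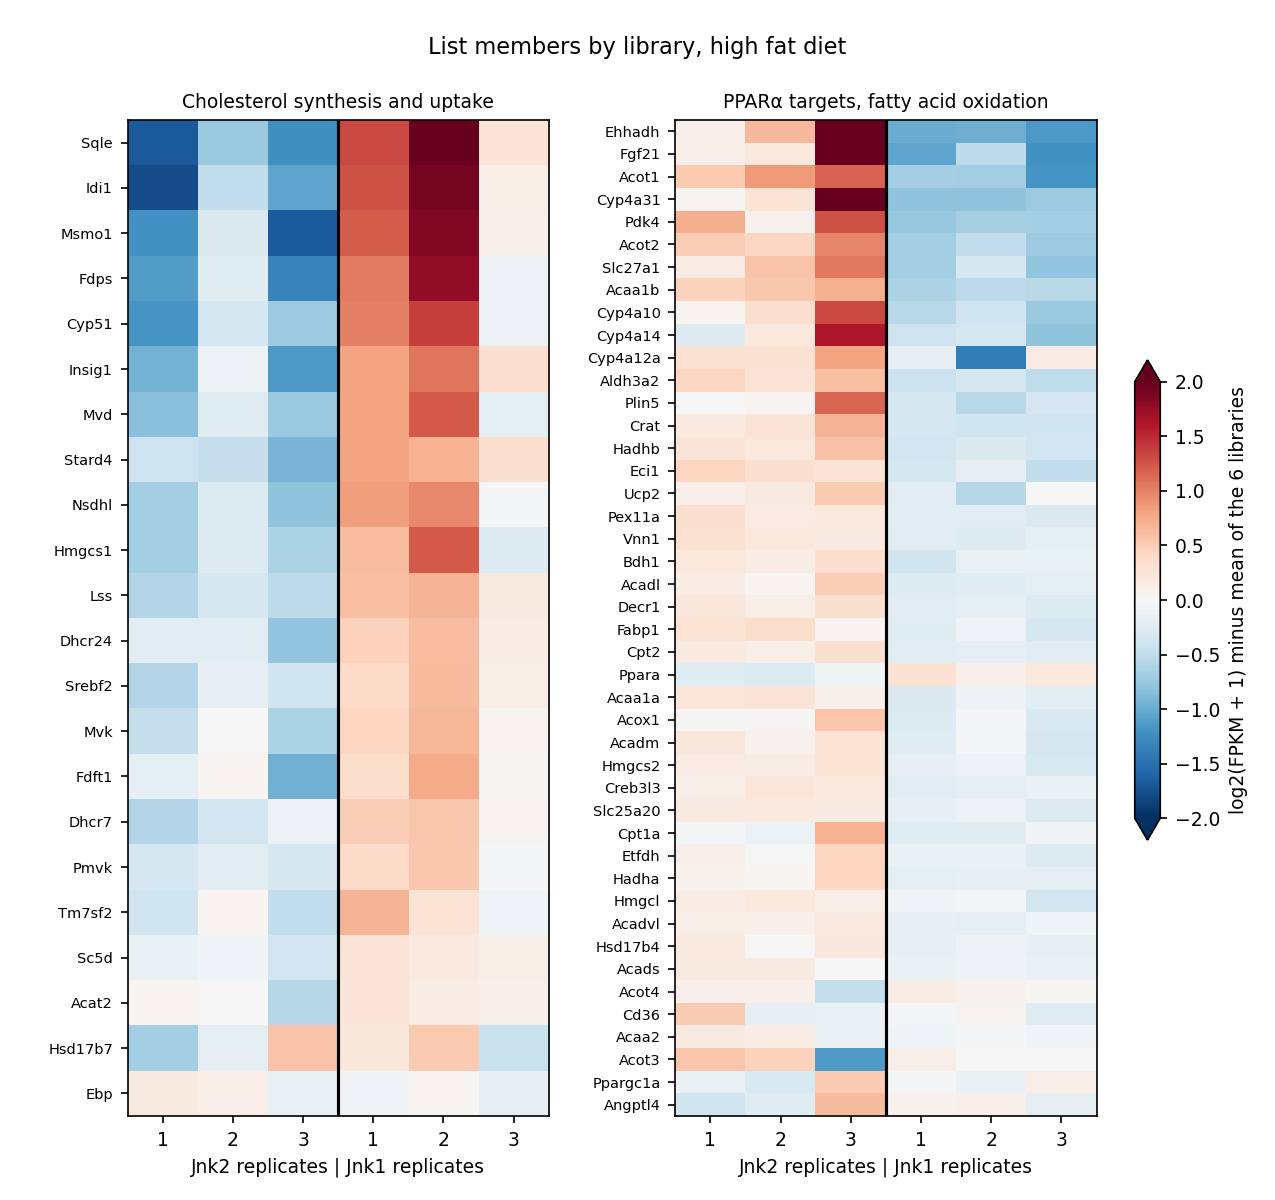
Expression of tested members of the cholesterol and PPARα lists in the 3 Jnk2 and the 3 Jnk1 libraries, as log2(FPKM + 1) minus the mean of the 6 libraries, with the genes ordered by the size of their change and colours running from −2 to 2. Most cholesterol genes are low in the Jnk2 columns and high in the Jnk1 columns, and 30 of the 44 PPARα list genes were called higher in Jnk2, 25 of them with replicate 3 as the highest library.

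Among lipid droplet and lipolysis genes 8 of 17 were called higher and 0 lower, with a median of 0.39. Summed FPKM was 1788, 1769 and 2572 in Jnk2 and 1288, 1427 and 1303 in Jnk1. Cidec, whose protein fuses droplets into larger ones, had 52.9, 50.1 and 146 FPKM in Jnk2 and 13.8, 10.9 and 13.0 FPKM in Jnk1, against 14.5, 5.03 and 4.33 FPKM in control livers. All Jnk2 libraries were above the other groups, and the change was 2.45 ± 0.37 (adjusted p = 0.000313). Plin2, the main droplet coat protein of hepatocytes, had 475, 474 and 884 FPKM in Jnk2 and 246, 297 and 251 FPKM in Jnk1 (1.14 ± 0.18, adjusted p = 0.000393). Mgll, which hydrolyses monoglycerides, had 145, 137 and 150 FPKM in Jnk2 and 77.6, 83.3 and 81.1 FPKM in Jnk1 (0.83 ± 0.10, adjusted p = 3.45e-05). The triglyceride lipase gene Pnpla2 changed by 0.93 ± 0.19 (adjusted p = 0.00301), and by 0.62 without replicate 3 of Jnk2. The count of 8 came to 5 without replicate 1 of Jnk1 and to 2 in the fit of the 6 libraries alone.

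Fatty acid synthesis divided by enzyme. Of 25 tested lipogenesis genes 4 were called higher and 5 lower, with a median of −0.15. Without replicate 1 or 2 of Jnk1 1 was called higher and 4 lower, without replicate 3 of Jnk2 2 and 3, without replicate 1 of Jnk2 2 and 7, without replicate 3 of Jnk1 2 and 4, and in the fit of the 6 libraries alone 0 and 3. Fasn, fatty acid synthase, had 4.57, 5.82 and 3.28 FPKM in Jnk2 and 14.2, 16.3 and 11.5 FPKM in Jnk1, against 9.92, 9.89 and 10.4 FPKM in control livers. The 3 groups were again separate, with a change of −1.45 ± 0.18 (adjusted p = 4.08e-05). Acaca, which makes the malonyl-CoA that Fasn uses, had 2.34, 2.43 and 3.09 FPKM in Jnk2 and 6.49, 5.56 and 5.37 FPKM in Jnk1 (−0.91 ± 0.12, adjusted p = 5.92e-05). Elovl5, which elongates polyunsaturated fatty acids, was higher, with 177, 190 and 586 FPKM in Jnk2 and 113, 112 and 107 FPKM in Jnk1 (1.28 ± 0.29, adjusted p = 0.00691). It changed by 0.72 without replicate 3 of Jnk2. Both falling genes are long transcripts, and with the length trend removed their changes were −1.14 for Fasn and −0.63 for Acaca. Elovl3, an elongase with a strong daily and sex-dependent rhythm in mouse liver, had 41.9, 44.2 and 66.8 FPKM in Jnk2 and 23.8, 20.4 and 19.2 FPKM in Jnk1, against 53.1, 59.5 and 41.7 FPKM in control livers (1.21 ± 0.20, adjusted p = 0.00059).

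Genes of insulin action and of its breakdown differed in both directions, with 3 of 23 called higher and 5 lower, or 2 and 3 without replicate 1 of Jnk1. Ide, the protease that degrades insulin, had 14.2, 12.3 and 16.9 FPKM in Jnk2 and 33.7, 31.0 and 29.5 FPKM in Jnk1, against 17.1, 13.1 and 15.0 FPKM in control livers. The Jnk1 group stood apart from the other two, and the change was −1.08 ± 0.12 (adjusted p = 2.07e-05). Insr, the insulin receptor, had 10.9, 10.5 and 15.0 FPKM in Jnk2 and 23.3, 20.2 and 20.9 FPKM in Jnk1 (−0.79 ± 0.15, adjusted p = 0.00191), and its change was −0.51 with the length trend removed. Igfbp2, a binding protein of insulin-like growth factors, had 272, 536 and 1130 FPKM in Jnk2 and 196, 220 and 201 FPKM in Jnk1 (1.41 ± 0.30, adjusted p = 0.00452), and its change was 0.89 without replicate 3 of Jnk2. Trib3, a pseudokinase that can hold back AKT, had 4.72, 5.66 and 6.88 FPKM in Jnk2 and 2.34, 1.59 and 2.40 FPKM in Jnk1 (1.12 ± 0.25, adjusted p = 0.00546).

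Bile acid genes included 2 of 21 called higher and 4 lower. Abcb11, the canalicular bile salt export pump, had 37.7, 34.0 and 32.8 FPKM in Jnk2 and 53.4, 54.8 and 52.8 FPKM in Jnk1, against 76.1, 61.2 and 64.8 FPKM in control livers (−0.61 ± 0.10, adjusted p = 0.00077). Both groups were below the controls, Jnk2 further. Abcc2, the conjugate export pump beside it, had 43.1, 35.2 and 49.1 FPKM in Jnk2 and 89.9, 75.9 and 86.6 FPKM in Jnk1 (−0.98 ± 0.22, adjusted p = 0.00553). Cyp8b1, the hydroxylase that makes cholic acid, was higher, with 211, 326 and 540 FPKM in Jnk2 and 156, 157 and 134 FPKM in Jnk1 (1.16 ± 0.27, adjusted p = 0.00775). Jnk2 and Jnk1 did not overlap in any of these 3 genes. Without replicate 1 of Jnk1, 1 bile acid gene was called higher and 2 lower. In the LXR, cholesterol efflux and HDL list 2 of 13 were called higher, Lpcat3 (0.47) and the HDL receptor gene Scarb1 (0.35), and 1 lower, with a median of 0.15. The 1 that fell was Abca1, the LXR-driven cholesterol efflux pump, which had 10.7, 9.28 and 11.6 FPKM in Jnk2 and 20.1, 18.0 and 20.4 FPKM in Jnk1 (−0.83 ± 0.13, adjusted p = 0.000384). With the length trend removed its change was −0.52. Without replicate 2 of Jnk1 0 members of that list were called higher, and without replicate 1 of Jnk1 or replicate 3 of Jnk2 1 was.

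The acute phase list, the plasma proteins that the liver makes under inflammatory signals, had 1 of 25 tested members called higher in Jnk2 and 11 lower, with a median of −0.65. Summed FPKM was 11675, 10946 and 13388 in Jnk2 and 16414, 19102 and 19928 in Jnk1. Apcs, serum amyloid P, had 57.6, 45.0 and 61.1 FPKM in Jnk2 and 131, 135 and 147 FPKM in Jnk1, against 172, 202 and 183 FPKM in control livers. The 3 groups did not overlap, and the change was −1.33 ± 0.27 (adjusted p = 0.00315). Itih4, an inhibitor-family plasma protein, had 548, 476 and 549 FPKM in Jnk2 and 954, 968 and 1170 FPKM in Jnk1 (−0.97 ± 0.19, adjusted p = 0.00209). The member called higher was Il1rn, the natural antagonist of the interleukin-1 receptor, with 6.96, 5.68 and 7.67 FPKM in Jnk2 and 1.92, 3.00 and 3.54 FPKM in Jnk1 (1.04 ± 0.17, adjusted p = 0.000546). Against the shared controls 19 members were called lower and 1 higher in Jnk2, while limma called 0 in Jnk1, where 6 were lower at an unadjusted p under 0.05. The 11 lower calls came to 6 without replicate 2 of Jnk1 and to 7 without replicate 3.

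Chaperones and sensors of the endoplasmic reticulum, which fold and check secreted proteins, had 10 of 21 members called lower and 0 higher, with a median of −0.42. Hspa5, the chaperone BiP, had 140, 131 and 119 FPKM in Jnk2 and 209, 230 and 193 FPKM in Jnk1 (−0.69 ± 0.16, adjusted p = 0.00774). Sel1l, which passes misfolded proteins out for degradation, had 16.5, 15.7 and 14.9 FPKM in Jnk2 and 27.3, 25.2 and 25.8 FPKM in Jnk1 (−0.70 ± 0.12, adjusted p = 0.000731). The stress sensor gene Ern1 had 3.66, 3.49 and 4.15 FPKM in Jnk2 and 7.07, 5.57 and 6.82 FPKM in Jnk1 (−0.65 ± 0.14, adjusted p = 0.0043). In each of the 3 all Jnk2 libraries were below all Jnk1 libraries. The 10 calls came to 6 without replicate 3 of Jnk2 or replicate 1 of Jnk1 and to 5 without replicate 2 of Jnk1. Against the shared controls 14 were called lower in Jnk2, and limma called 0 in Jnk1, where 1 was lower at an unadjusted p under 0.05.

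A pair of long transcripts for secreted proteins also fell. Apob, the structural protein of VLDL, had 162, 164 and 209 FPKM in Jnk2 and 485, 406 and 471 FPKM in Jnk1, against 473, 370 and 369 FPKM in control livers (−1.35 ± 0.16, adjusted p = 3.88e-05). Fn1, fibronectin, had 91.0, 95.3 and 106 FPKM in Jnk2 and 272, 244 and 271 FPKM in Jnk1 (−1.42 ± 0.16, adjusted p = 2.07e-05). The Jnk2 libraries were far below the others in both. These transcripts are very long, and with the length trend removed the changes were −0.94 for Apob and −1.19 for Fn1.

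Immediate early and AP-1 genes, the classical readout of JNK signalling, had 4 of 17 members called, all higher in Jnk2. Myc, the proto-oncogene, had 6.99, 4.34 and 3.33 FPKM in Jnk2 and 1.40, 0.99 and 1.10 FPKM in Jnk1 (1.40 ± 0.24, adjusted p = 0.000797). Atf3 had 3.56, 2.36 and 3.26 FPKM in Jnk2 and 0.841, 0.827 and 0.993 FPKM in Jnk1 (1.09 ± 0.30, adjusted p = 0.021). Ier3 (0.64) and Klf6 (0.58) were the others. Jun, Junb, Jund, Fos, Fosl2 and Atf2 were tested and not called. Among members averaging at least 5 FPKM 0 were called. The Atf3 call was lost without replicate 1 or 3 of Jnk2 (adjusted p = 0.0673 and 0.0551) and without replicate 1 or 2 of Jnk1 (0.0706 and 0.0614). Klf6 lost its call without any library but replicate 2 of Jnk2 (0.0565 to 0.127), and Ier3 without replicate 1 of Jnk1 (0.0549). Without replicate 1 of Jnk1 1 of the 17 was called, and without replicate 1 or 3 of Jnk2 or replicate 2 of Jnk1 2 were. Among the 16 tested genes of the pathway itself 3 were called higher and 1 lower, the targeted pair included. Map3k12, an upstream kinase of JNK, had 7.22, 6.91 and 6.85 FPKM in Jnk2 and 3.97, 4.13 and 3.77 FPKM in Jnk1 (0.69 ± 0.11, adjusted p = 0.000407).

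Iron and haem genes had 3 of 24 called higher and 1 lower, and metal transport and metallothionein genes had 4 of 9 called lower. Among NRF2 targets and glutathione genes 2 of 21 were called higher, Srxn1 (0.78) and Gstm4 (0.60). Over all tested loci 7.55% were called higher and 6.91% lower, so the iron and haem and the NRF2 counts stand near that share. The ferritin chains Fth1 (0.50 ± 0.09, adjusted p = 0.00182) and Ftl1 (0.66 ± 0.13, adjusted p = 0.00311) were higher. Fth1 had 1700, 1540 and 1510 FPKM in Jnk2 and 1120, 1150 and 1100 FPKM in Jnk1. Slc39a14, a zinc and iron importer that inflammation induces, had 37.8, 30.9 and 43.1 FPKM in Jnk2 and 61.8, 69.4 and 61.3 FPKM in Jnk1 (−0.78 ± 0.13, adjusted p = 0.000699). Metallothionein Mt2 was lower, with 99.8, 58.1 and 131 FPKM in Jnk2 and 355, 734 and 259 FPKM in Jnk1 (−2.14 ± 0.50, adjusted p = 0.00731), though it has a near-identical paralogue, Mt1. Alas1, which starts haem synthesis, had 309, 267 and 208 FPKM in Jnk2 and 453, 504 and 526 FPKM in Jnk1, against 179, 204 and 307 FPKM in control livers (−0.93 ± 0.22, adjusted p = 0.00774). Of 20 tested genes of xenobiotic metabolism, a list of cytochromes P450 that also holds their receptors, Por and Alas1, 7 were called lower and 0 higher, with a median of −0.61. Without replicate 3 of Jnk2 or replicate 1 of Jnk1 3 were called, and without replicate 2 of Jnk1 2 were. Values did not overlap for 7 of the 20, against 33.5% of all tested loci. Summed over the list, FPKM was 9608, 9577 and 6087 in Jnk2 and 9532, 10275 and 8919 in Jnk1, and the sums overlapped. Replicate 3 was the lowest Jnk2 library for 5 of the 7 called lower. Cyp3a13 had 61.2, 51.9 and 61.7 FPKM in Jnk2 and 90.7, 93.2 and 103 FPKM in Jnk1 (−0.71 ± 0.12, adjusted p = 0.00072). Per1, a repressor of the circadian clock, had 5.55, 7.53 and 8.07 FPKM in Jnk2 and 16.7, 13.9 and 13.8 FPKM in Jnk1 (−0.98 ± 0.18, adjusted p = 0.00127). It was 1 of 5 clock genes called lower of 22, while Nr1d1 (0.71) was called higher. The count of 5 was 8 without replicate 1 of Jnk2, 3 without replicate 3 of Jnk2 and 1 without replicate 1 of Jnk1. Against the shared controls limma called 0 clock genes in either group. The list's median was 0.46 in Jnk1, with 12 members higher and 2 lower at limma's unadjusted p under 0.05. In Jnk2 it was −0.04, with 2 higher and 2 lower. The part of the time of collection was not tested.

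Among markers of cells in which albumin-driven Cre does not act, some endothelial, stellate and macrophage genes were called higher in Jnk2. In whole liver, more cells of a type and more RNA per cell cannot be told apart. Endothelial markers had 7 of 16 called higher in Jnk2 and 0 lower, and summed to 196, 190 and 203 FPKM in Jnk2 and to 132, 143 and 160 FPKM in Jnk1. Dnase1l3, an endothelial and macrophage nuclease, had 16.6, 18.1 and 17.5 FPKM in Jnk2 and 11.0, 11.1 and 12.1 FPKM in Jnk1 (0.57 ± 0.10, adjusted p = 0.000797). Stellate cell and collagen markers had 8 of 17 called higher and 0 lower, and summed to 279, 247 and 295 FPKM in Jnk2 and to 188, 176 and 210 FPKM in Jnk1. The basement membrane collagen Col4a1 had 7.10, 6.41 and 8.75 FPKM in Jnk2 and 3.16, 3.33 and 4.35 FPKM in Jnk1 (0.87 ± 0.15, adjusted p = 0.000915). Neither sum overlapped between the groups. Macrophage and Kupffer cell markers had 6 of 24 called higher and 0 lower, and their sums of 522, 522 and 693 FPKM in Jnk2 overlapped the 464, 391 and 619 FPKM in Jnk1. These counts moved with single libraries. Without replicate 1 of Jnk1, 2 endothelial, 2 stellate and 0 macrophage markers were called, and without replicate 2 of Jnk1 the counts were 5, 1 and 0. Without replicate 1 of Jnk2 they were 3, 3 and 1, and without replicate 3 of Jnk2 they were 4, 3 and 1. The part of these cells in the gene groups above was not tested.

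Neutrophil markers went the other way, with 2 of 4 tested called lower. S100a8, which with S100a9 makes calprotectin, had 11.4, 7.50 and 11.9 FPKM in Jnk2 and 31.6, 39.5 and 95.9 FPKM in Jnk1 (−2.18 ± 0.57, adjusted p = 0.0156), and S100a9 changed by −2.04. Both calls were lost without replicate 2 of Jnk2 (adjusted p = 0.0559 for S100a8 and 0.0675 for S100a9) or replicate 3 of Jnk1 (0.0762 and 0.102). Prtn3, a protease of granulocyte precursors that is tested here outside that list, had 0.730, 0.118 and 0.359 FPKM in Jnk2 and 3.91, 2.87 and 10.8 FPKM in Jnk1, against 11.6, 9.18 and 8.94 FPKM in control livers (−2.14 ± 0.44, adjusted p = 0.00331). Krt23, a keratin of biliary and injured liver epithelium, had 11.0, 8.64 and 11.2 FPKM in Jnk2 and 1.59, 4.46 and 1.00 FPKM in Jnk1 (1.88 ± 0.30, adjusted p = 0.000424). It was the only 1 of 5 tested cholangiocyte markers that was called or whose groups did not overlap. The median of that list was 0.28. Replicate 2 of Jnk1 carried pancreatic transcripts, which summed to 95.0 FPKM there and to 6.40 to 12.0 FPKM in the other 5 libraries. Adipocyte markers summed to 231 FPKM in replicate 3 of Jnk2 and to 1757 and 1438 FPKM in the others of its group, against 1390, 1522 and 1336 FPKM in Jnk1. Of that list Adipoq, Lep, Retn, Plin1 and Nrip3 averaged under 1 FPKM over the 24 libraries and were not tested. The sum thus came mostly from Cfd, Fabp4, Lipe, Car3 and Cidea, and is not read as fat tissue. Neither set's part in the results was tested.

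The largest single rise was Gm15441, a long non-coding RNA that lies antisense to Txnip. It had 10.1, 15.0 and 43.1 FPKM in Jnk2 and 0.882, 0.836 and 0.860 FPKM in Jnk1, against 1.77, 1.71 and 0.568 FPKM in control livers (3.42 ± 0.35, adjusted p = 1.16e-05). Strand of counting is not given in the sources used here, so its reads and those of Txnip (0.50, adjusted p = 0.0626) cannot be told apart where they overlap. Tubb2a, a β-tubulin, had 19.7, 17.1 and 89.1 FPKM in Jnk2 and 5.24, 6.68 and 5.26 FPKM in Jnk1 (2.27 ± 0.38, adjusted p = 0.000745). Leap2, the liver peptide that blocks the ghrelin receptor, had 220, 214 and 49.6 FPKM in Jnk2 and 861, 958 and 429 FPKM in Jnk1 (−2.40 ± 0.48, adjusted p = 0.00294). Replicate 3 of Jnk2 was the extreme library in each of these 3 genes, and the groups still did not overlap.

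Several of the clearest differences lie on the chromosomes of the targeted genes. Pttg1, securin, which lies on chromosome 11 (43420248 to 43426248, mm10) as Mapk9 does (49846751 to 49886421), had 2.74, 2.88 and 1.46 FPKM in Jnk2 and 29.6, 26.5 and 29.4 FPKM in Jnk1, against 28.7, 27.1 and 28.4 FPKM in control livers. Only the Jnk2 libraries were apart, and the change was −3.16 ± 0.18 (adjusted p = 1.46e-09). Fam25c, on chromosome 14 (34351882 to 34355393) near Mapk8 (33377899 to 33447158), had 30.7, 31.8 and 25.3 FPKM in Jnk2 and 3.79, 4.89 and 4.71 FPKM in Jnk1, against 46.3, 53.7 and 48.5 FPKM in control livers (2.47 ± 0.32, adjusted p = 6.92e-05). Here the Jnk1 libraries were the low ones. Gdf10, a BMP family ligand in the same region, had 4.16, 3.57 and 3.54 FPKM in Jnk2 and 0.899, 0.790 and 1.25 FPKM in Jnk1 (1.27 ± 0.15, adjusted p = 3.88e-05). Of 75 other tested loci within 10 Mb of Mapk8, 18 were called (24.0%), and of 110 within 10 Mb of Mapk9, 14 were (12.7%), against 14.5% of all tested loci. On chow 2 of the 75 (2.67%) and 4 of the 110 (3.64%) were called, against 0.237% of all tested loci.

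The same genotypes on chow differed far less. On chow 25 loci were called (0.237%), 10 higher in Jnk2 (0.0947%) and 15 lower (0.142%). At limma's unadjusted p under 0.05 there were 1258 loci on chow and 3129 on high fat. The chow count was 56 without replicate 2 of chow-fed Jnk1, 14 without its replicate 1 and 16 without replicate 2 of chow-fed Jnk2. Only 10 loci were called on both diets, 8 of them in the same direction. A test of whether the difference itself differed between the diets called 1118 loci (10.6%), 680 positive (6.44%) and 438 negative (4.15%), and 791 of these were also called on high fat. With size factors the split was 533 positive and 604 negative. The count of 1118 was 528 without replicate 1 and 694 without replicate 2 of high fat Jnk1, 529 without replicate 1 of chow-fed Jnk1 and 583 without replicate 3 of chow-fed Jnk2. For the cholesterol list limma called 0 members on chow, 1 was lower at an unadjusted p under 0.05, and the median was −0.02. The diet test called 15 of its 25 members, all negative. For the PPARα list limma called 0 on chow, 1 was higher and 5 lower at an unadjusted p under 0.05, and the median was −0.07. The diet test called 18 of its 44 members, all positive.

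Sqle changed by 0.21 on chow, with no call there (adjusted p = 0.899), and its diet difference was −2.64 (adjusted p = 0.0111). For Acot1 the chow change was −0.04 and the diet difference 1.74 (adjusted p = 0.00125). Abcb11 differed on both diets in opposite directions. On chow it had 47.6, 46.0 and 38.3 FPKM in Jnk2 and 25.2, 32.8 and 29.0 FPKM in Jnk1, a rise of 0.59 (adjusted p = 0.0115), and the diet difference was −1.20 (adjusted p = 0.000259). Ahr, the dioxin receptor, had 5.62, 5.79 and 6.19 FPKM in Jnk2 and 13.3, 12.8 and 9.07 FPKM in Jnk1 on high fat (−0.87 ± 0.12, adjusted p = 0.000102). On chow Ahr had 11.7, 10.8 and 11.1 FPKM in Jnk2 and 6.21, 8.42 and 8.08 FPKM in Jnk1, where 0.52 did not pass (adjusted p = 0.0694). Its diet difference was −1.39.

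The calls common to both diets included the targeted genes, with chow changes of 1.08 for Mapk8 (adjusted p = 2.41e-05) and −0.57 for Mapk9 (adjusted p = 0.00293). Pttg1 had 1.31, 0.930 and 1.32 FPKM in Jnk2 and 34.6, 22.8 and 29.4 FPKM in Jnk1 on chow, a change of −3.76 (adjusted p = 5.85e-11). Fam25c had 51.1, 34.6 and 40.7 FPKM in Jnk2 and 8.19, 4.46 and 2.35 FPKM in Jnk1 on chow (2.95, adjusted p = 4.72e-05). Elovl3 had 61.8, 54.4 and 60.1 FPKM in Jnk2 and 20.1, 27.0 and 22.8 FPKM in Jnk1 on chow (1.31, adjusted p = 0.00293), close to its change on high fat. Ide had 16.3, 16.0 and 15.1 FPKM in Jnk2 and 23.4, 30.8 and 25.6 FPKM in Jnk1 on chow (−0.71, adjusted p = 0.00551). Groups did not overlap in any of these 4 genes. The neighbouring locus of Ide on chromosome 19, 4931408D14Rik (37258426 to 37264095), had 5.15, 6.36 and 5.11 FPKM in Jnk2 and 14.3, 16.2 and 13.7 FPKM in Jnk1 on chow (−1.27 ± 0.14, adjusted p = 5.65e-05). On high fat its change was −0.23 and was not called, and the diet difference was 1.04 (adjusted p = 0.00478).

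**Figure D4:**
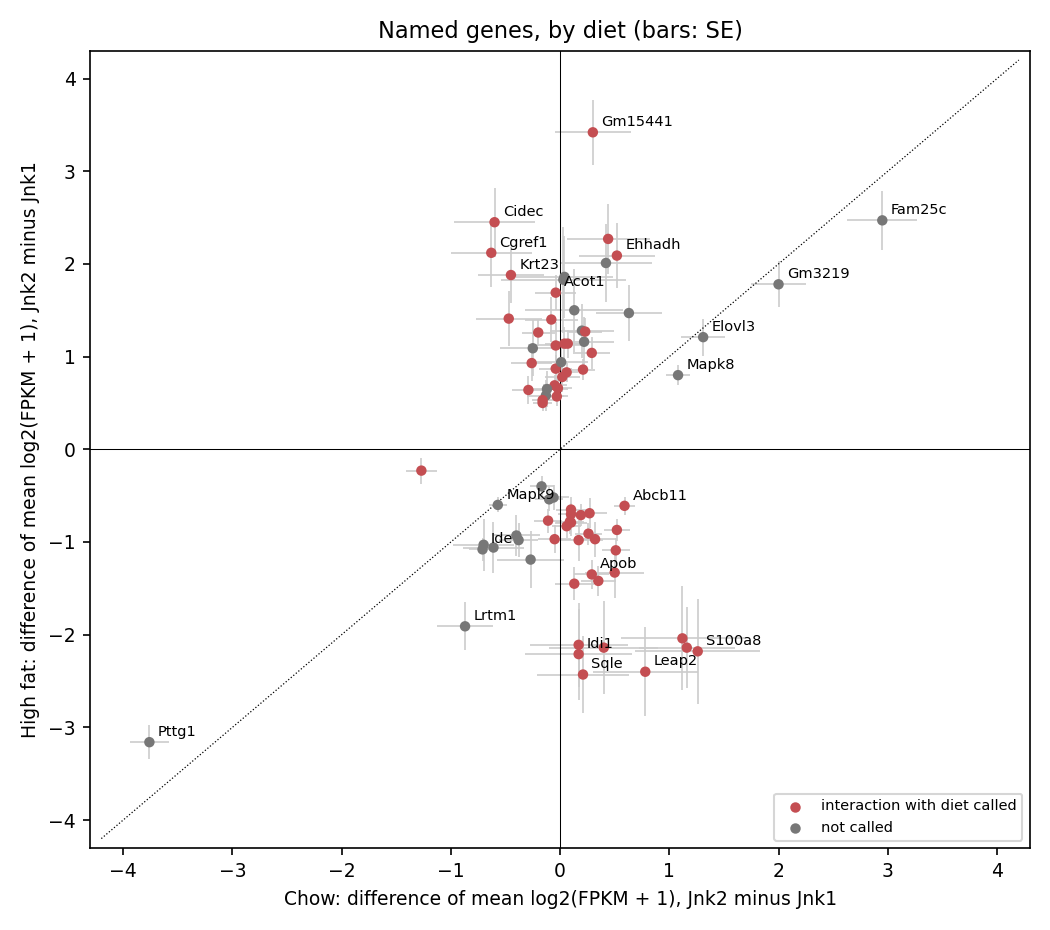
Each point is 1 of the genes named by rule, with its SE and with the change between Jnk2 and Jnk1 on chow on the horizontal axis and on high fat on the vertical axis, both as differences of mean log2(FPKM + 1). Sqle lies at 0.21 on chow and −2.43 on high fat and Acot1 at −0.04 and 1.69, while Pttg1 (−3.76 on chow, −3.16 on high fat) and Fam25c (2.95 and 2.47) lie far out on both.

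Changes on high fat depended on transcript length. Across loci, a library's deviation from the mean of all libraries correlated with transcript length at Spearman −0.14, −0.25 and 0.20 in Jnk2 and at 0.34, 0.18 and 0.38 in Jnk1, given as a description. In the longest of 10 length classes 15 loci were called higher and 301 lower, with a median of −0.23. In the second shortest class 127 were higher and 22 lower, with a median of 0.135. After a smooth length trend was removed from each library, 1395 loci were called (13.2%), 755 higher (7.15%) and 640 lower (6.06%), and 1080 were called in the same direction in both. The cholesterol list then had 22 members called lower and the PPARα list 24 higher and 1 lower. Called lower were 14 acute phase and 13 endoplasmic reticulum members, with 1 acute phase member higher. Lipogenesis genes had 2 higher and 5 lower, bile acid genes 1 and 6, insulin genes 3 and 3, and LXR genes 1 and 1. Iron and haem genes had 2 higher and 2 lower, NRF2 genes 2 and 1, JNK pathway genes 2 and 1, and clock genes 1 and 7. Lipid droplet genes had 7 higher and macrophage markers 4. The part of RNA integrity or library preparation in this trend was not tested.

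**Figure D5:**
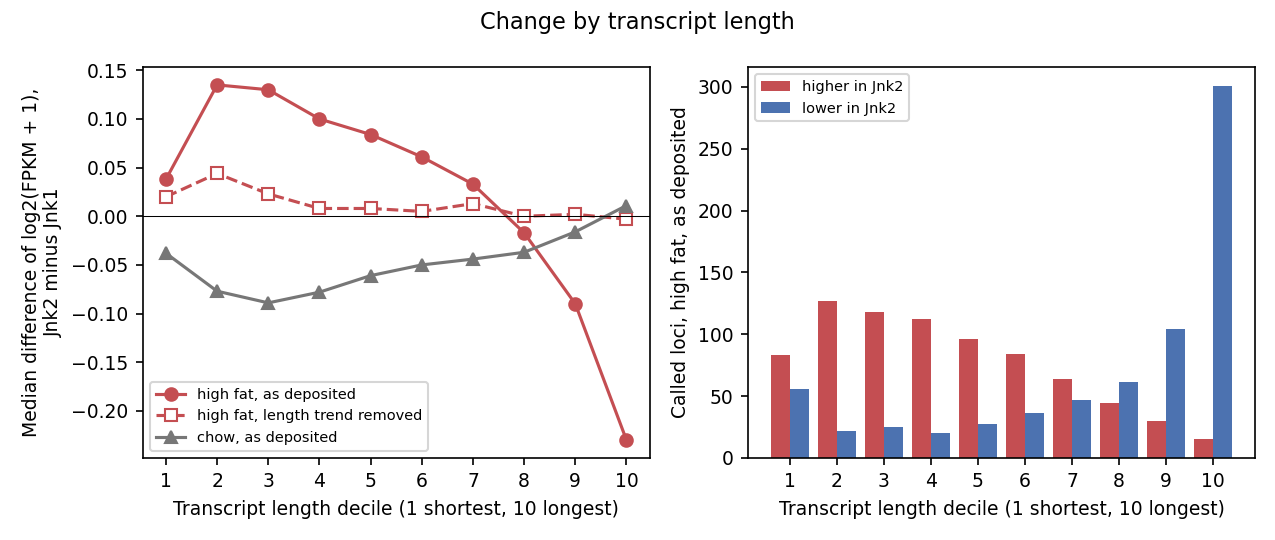
The left panel shows the median change between Jnk2 and Jnk1 in 10 classes of transcript length, as deposited on each diet and with the length trend removed on high fat, and the right panel the number of loci called in each class on high fat. The high fat median falls to −0.23 in the longest class, where 301 loci are called lower and 15 higher.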

How the data were processed

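The authors deposited 1 table of FPKM for 31027 loci in 24 liver RNA-seq libraries, 8 groups of 3. RNA was purified on RNeasy columns, per the labels' protocols. TopHat, Cufflinks, Cuffdiff and the mm10 build are named per the submitters' processing notes. Versions, strand and read depth are not given in the sources used here, so no interval from counting could be made. Levels were taken as deposited, log2(FPKM + 1), and fitted with limma 3.58.1 (trend, R 4.3.3) in 1 model of all 24 libraries, for loci with a mean of at least 1 FPKM. The model has 16 residual degrees of freedom, and p-values were adjusted by Benjamini-Hochberg over all tested loci. The fit was tested on simulated data. Results were recomputed with a different pseudocount, filter or scaling, with array weights, a replicate block, fewer groups, a loess length trend removed from each library, and each library left out.

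The members and the gene lists were chosen with earlier results of these data known, so list counts support no direction on their own. Genes were named by rule: the targeted genes, Fgf21 and Ppara, the 15 largest rises and falls whose groups did not overlap, the called members with the 4 smallest p-values of each of 35 lists, the 5 smallest p-values on chow and in the diet test, and called loci within 10 Mb of the targeted genes. Of these, mainly those that held with libraries left out are printed. Some genes that meet it are not reported here. Insig1, Fdps, Fdft1, Tm7sf2, Nr1d1 and Txnip lie outside the rule or were added after their values were seen. Listed zeros at 16 otherwise well expressed loci may be failed estimates, and Alb and the Serpina1 locus were left out of the hepatocyte sum for that reason. Promoters are from RefSeq.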

Additional observations from a re-analysis of the deposited data

Results flagged for a closer look

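For 54 genes of the report the difference between Jnk2 and Jnk1 itself differed between the diets, by limma's test of that difference at an adjusted p under 0.05. The values are the change on high fat minus the change on chow, on the log2(FPKM + 1) scale, and 3 libraries stand in each of the 4 groups. They were mostly followed here because they were called on high fat, so the count is a description. With each of the 12 libraries left out in turn, 42 of the 54 passed every time and 0 changed direction. The printed genes were mainly those that held with libraries left out, so the 42 was in part fixed by that choice.

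Among cholesterol genes the diet difference was −2.64 for Sqle, −2.38 for Idi1, −2.28 for Msmo1 (listed as Sc4mol), −0.92 for Lss and −0.66 for Srebf2. Other lipid genes with negative values were Fasn (−1.58), Acaca (−1.17), Abca1 (−0.89), Abcb11 (−1.20) and Abcc2 (−1.15). On the fat-burning and droplet side the values were positive, at 1.74 for Acot1, 1.46 for Acot2, 1.07 for Acaa1b, 0.65 for Aldh3a2, 1.57 for Ehhadh, 3.05 for Cidec, 1.11 for Plin2, 0.77 for Mgll and 1.19 for Pnpla2.

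Genes of JNK signalling and early response had 0.74 for Map3k12, 1.48 for Myc and 0.93 for Ier3. Insulin-related genes had −0.89 for Insr, 1.88 for Igfbp2 and 1.15 for Trib3. Secreted, acute phase and chaperone genes had −1.30 for Itih4, −1.83 for Apcs, 0.75 for Il1rn, −0.96 for Hspa5, −0.80 for Sel1l, −0.75 for Ern1, −1.64 for Apob, −1.78 for Fn1, −1.60 for Mug2 (an inhibitor with near-identical copies) and −3.19 for Leap2. Metal, iron and xenobiotic genes had −2.54 for Mt2, −0.87 for Slc39a14, 0.66 for Fth1, 0.68 for Ftl1, 0.77 for Srxn1 (which repairs peroxiredoxins), −0.90 for Cyp3a13 and −1.39 for Ahr.

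Markers of other cells had 0.60 for Dnase1l3, 0.68 for Eng (the endothelial receptor endoglin), 0.90 for Col4a1, −3.44 for S100a8, −3.15 for S100a9, −3.30 for Prtn3 and 2.33 for Krt23. Krt23 was the only 1 of 5 tested cholangiocyte markers that the diet test called. Single libraries stood far out in the neutrophil genes. Their markers summed to 23.7, 18.0 and 27.0 FPKM in Jnk2 and 58.1, 75.2 and 214 FPKM in Jnk1 on high fat, and to 149, 22.3 and 23.4 FPKM in Jnk2 and 26.8, 13.7 and 17.6 FPKM in Jnk1 on chow. Without replicate 1 of chow-fed Jnk2 the diet difference was −2.50 for S100a8 (adjusted p = 0.0186), −2.35 for S100a9 (adjusted p = 0.0375) and −2.58 for Prtn3 (adjusted p = 0.00432). Without replicate 3 of high fat Jnk1 it was −2.97, −2.61 and −2.82. The remaining genes were Gm15441 (3.12), Tubb2a (1.83), Cgref1 (2.76), Gdf10 (1.04) and 4931408D14Rik (1.04).

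The 12 that missed the threshold without some library were Abcc2, Ehhadh, Ern1, Ftl1, Idi1, Il1rn, Mt2, Msmo1, Srebf2, Srxn1, Trib3 and Tubb2a.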

How the results depend on the processing

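On high fat 1527 loci were called, against 3861 with array weights, 546 when only the compared groups were fitted, and 713 to 1249 without single libraries. On chow 25 were called, against 44 with quantile normalization, 38 with array weights, 6 when only the compared groups were fitted, 42 with the length trend removed and 44 with the length trend removed and size factors together. Without single libraries the chow count was 14 to 56. The diet test called 1118, against 2430 with array weights, 680 in such a fit, and 528 to 1491 without single libraries. Its split of 680 positive and 438 negative was 533 and 604 with size factors, 588 and 671 with quantile normalization and 442 and 456 with the length trend removed. The cause was not tested. The fit of fewer groups has fewer degrees of freedom and also takes its spread from those groups alone, and the part of each was not tested. Mapk8 was called in every alternative run that tested it, at 0.69 to 0.90 without single libraries. It was left out by the filter of a mean of at least 5 FPKM. Mapk9 was called in every alternative run, at −0.65 to −0.54 without single libraries. Of 79 other genes followed through the alternatives, 46 stayed on their side of the threshold in all runs that tested them. When libraries were left out 64 stayed, and 0 changed direction in any run. These genes were printed mainly because they held with libraries left out, so the 64 was in part fixed by that choice. With only the compared groups fitted 28 were no longer called. Among them were Ehhadh, Fgf21, Elovl5, Igfbp2, Cyp8b1, Tubb2a, Leap2, Cgref1, Plin2 and Pnpla2. Srebf2, Idi1, Msmo1, Ppara, Ier3, Klf6, Mt2, Fth1, Ftl1 and S100a9 were lost there too. The adjusted p printed with these genes above is from the fit of all 24 libraries unless stated. Removing the length trend together with size factors, and keeping transcripts of at least 300 bases, were alternatives chosen after seeing the data.

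With the replicate number as a block, 1476 loci were called on high fat, 26 on chow and 1041 in the diet test. The numbers share no stated source, and same-numbered libraries correlated in their deviations at −0.01, 0.09 and 0.09, so no pairing was assumed.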
